A study of Mus musculus with 8 samples.

Results

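The genes described here encode the proteins of the mitochondrial ribosome, 76 genes of 18193 measured, in gonadal white fat of mice whose adipocyte peroxisomes had been disabled and of controls. They were taken by name: every gene whose single platform symbol was Mrpl or Mrps followed by a digit, with 1 probe set per gene, the one with the highest mean over the 8 arrays. By the letter of the symbol 47 belonged to the large subunit (Mrpl) and 29 to the small subunit (Mrps). The rule itself uses no difference between arrays or groups.

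RNA came from gonadal adipose tissue of mice aged 10 weeks, kept under normal conditions with no treatment, and was hybridised to 1 Affymetrix mouse array per sample. Controls were wild type on a Swiss background (arrays 1, 2, 3 and 4), and aP2-Pex5 -/- mice had lost Pex5, the receptor that carries enzymes into peroxisomes (arrays 6, 8, 9 and 10). The aP2 promoter, that of the fatty acid binding protein gene Fabp4, drives expression in adipocytes and is known to be active in some other cells, and the sex of the mice and whether each array was a separate animal are not stated in the labels. The comparison asks whether the loss of adipose peroxisomes goes with a different level of these transcripts, and p-values measure only the spread between these samples, which may be technical.

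Mitochondria keep their own ribosome, which translates the few proteins encoded in mitochondrial DNA, all of them core subunits of the respiratory chain and ATP synthase. Its RNA is made inside the organelle, while its proteins are made from nuclear genes in the cytosol and imported. Many of these proteins descend from bacterial ribosomal proteins, others are found in mitochondria alone, and the set has to be made in matched amounts because each ribosome needs its parts together. White adipocytes hold fewer mitochondria than brown ones, yet rely on them to make citrate for fatty acid synthesis and to oxidise fuels.

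Promoter sequences of 67 of the 76 genes were available in a RefSeq table on GRCm38.p6, in windows of 250 bases before to 50 bases after the start. The 5 windows below, cut at 30 bases after the start, are shown because the results return to their genes. Mrpl12 (chr11:120484387-120484666, plus strand) and Mrps22 (chr9:98601650-98601929, minus strand) were among the 3 members of largest SD over the arrays. Mrps21 (chr3:95871485-95871764, minus strand) had the smallest unadjusted p between the groups. Mrps18a (chr17:46110754-46111033, plus strand) is a paralogue that sits in the other subunit from the one its symbol names. Mrpl46 (chr7:78783060-78783339, minus strand) starts 42 bases from the small-subunit gene Mrps11, which is read the opposite way. Sequences run 5′ to 3′ on the gene's strand, and capitals mark a match, on either strand, to an ETS, NRF1 or YY1 motif.
Mrpl12: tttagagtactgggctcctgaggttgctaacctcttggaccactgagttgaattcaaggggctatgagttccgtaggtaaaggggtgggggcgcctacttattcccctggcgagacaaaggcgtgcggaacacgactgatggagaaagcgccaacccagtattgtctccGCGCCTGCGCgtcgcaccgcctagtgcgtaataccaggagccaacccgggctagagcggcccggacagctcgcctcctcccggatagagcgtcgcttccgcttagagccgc
Mrps22: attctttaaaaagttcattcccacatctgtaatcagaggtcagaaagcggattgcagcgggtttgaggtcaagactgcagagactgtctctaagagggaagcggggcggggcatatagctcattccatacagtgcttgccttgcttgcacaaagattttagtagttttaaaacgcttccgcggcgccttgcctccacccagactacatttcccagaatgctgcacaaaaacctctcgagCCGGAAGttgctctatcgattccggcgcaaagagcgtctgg
Mrps21: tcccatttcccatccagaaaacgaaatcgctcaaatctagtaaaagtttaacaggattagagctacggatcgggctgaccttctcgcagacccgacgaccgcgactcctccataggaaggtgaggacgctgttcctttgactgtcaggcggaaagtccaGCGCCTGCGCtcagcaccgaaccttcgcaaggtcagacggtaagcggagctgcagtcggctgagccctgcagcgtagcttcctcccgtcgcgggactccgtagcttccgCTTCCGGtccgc
Mrps18a: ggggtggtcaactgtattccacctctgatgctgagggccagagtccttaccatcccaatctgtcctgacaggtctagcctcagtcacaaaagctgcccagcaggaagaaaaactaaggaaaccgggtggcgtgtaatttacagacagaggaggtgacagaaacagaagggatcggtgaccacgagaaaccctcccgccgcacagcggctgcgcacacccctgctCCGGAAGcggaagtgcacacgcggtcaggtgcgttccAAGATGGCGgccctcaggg
Mrpl46: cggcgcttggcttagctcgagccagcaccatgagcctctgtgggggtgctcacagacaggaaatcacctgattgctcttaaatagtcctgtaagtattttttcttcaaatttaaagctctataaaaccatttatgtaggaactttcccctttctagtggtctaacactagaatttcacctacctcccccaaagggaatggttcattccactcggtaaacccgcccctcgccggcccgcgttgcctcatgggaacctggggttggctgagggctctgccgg

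Motifs of factors known to act on nuclear genes for mitochondrial proteins were more common in these windows than in those of genes at large. The ETS motif CCGGAAG, bound by GABP (also called NRF2) among others, was present in 25 of 67 members (37.3%) and in 2264 of 17491 protein-coding genes listed (12.9%). The NRF1 motif (GCGCA, any base, then GCGC) was present in 12 members (17.9%) against 7.17% of genes, and AAGATGGCG, the core of the YY1 motif, in 8 members (11.9%) against 2.14%. At least 1 of the 3 was found in 39 members (58.2%) and 20.0% of genes. Both strands of the full 300 bases were searched, matches of different motifs overlapped in 0 member promoters, and 6 members held 2 kinds. Member windows were also richer in CpG, with a median of 21 CpG sites against 13 and a GC content of 58.7% against 56.3%. A match is only these letters in this window, and the other windows were not shown by it to lack a site.

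**Figure D1:**
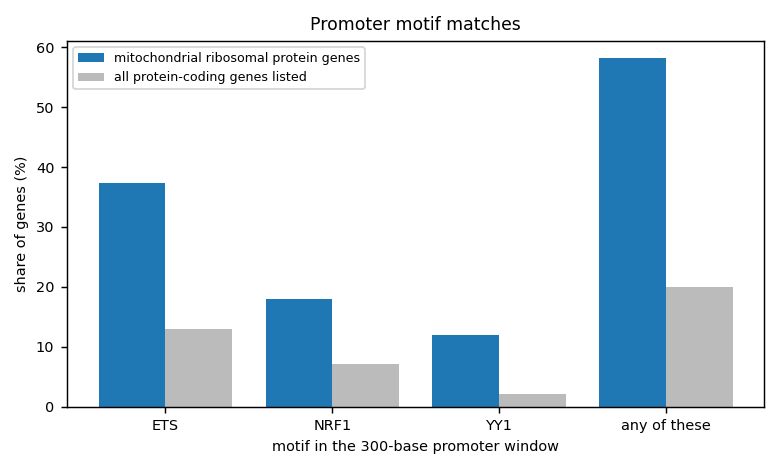
Share of genes (%) whose 300-base promoter window holds the ETS, NRF1 or YY1 motif on either strand, for 67 mitochondrial ribosomal protein genes (blue) and 17491 protein-coding genes (grey). The blue bar is the taller for each motif, 37.3% against 12.9% for ETS.

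Shared start regions were common as well. In 22 of the 67 members (32.8%) another gene started within 500 bases upstream on the opposite strand, against 2048 of 17491 protein-coding genes (11.7%). Mrpl46 and Mrps11, whose starts lie 42 bases apart on chromosome 7, join a large-subunit and a small-subunit protein. Mrps12, the protein of the decoding centre, starts 147 bases from Sars2, the mitochondrial seryl-tRNA synthetase. Mrpl43 lies 116 bases from Twnk, the helicase that replicates mitochondrial DNA, and Mrpl47 lies 308 bases from Ndufb5, a subunit of respiratory complex I. Members were spread over the genome, with 11 on chromosome 11 and 8 on chromosome 17 as the fullest.

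The samples held fat in both groups. Of 9 adipocyte markers listed 7 were measured, among them Adipoq and Fabp4, and their mean log2 value lay between 13.23 and 13.64 on control arrays and between 13.48 and 13.68 on knockout arrays. Pex5 itself had a mean of 9.38 ± 0.24 on control and 9.36 ± 0.10 on knockout arrays (SD, n = 4 each). The labels name no deleted exon, so a probe set that may lie outside the deletion does not check the genotype. Array medians ran from 6.44 to 6.52, and the excess of the 3′ over the 5′ probe set for pyruvate carboxylase, a measure of RNA integrity, was 3.97 on control 1, 4.83 on control 4 and 4.65 on knockout 9, against 1.59 to 2.10 on the other 5 arrays. All 76 members had a mean above 7.58, the median of all genes, so none was lost to a filter on dim genes.

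No mitochondrial ribosomal protein gene passed the limma test of knockout against control. After adjustment 0 of 76 members lay under 0.05 (smallest adjusted p = 0.999), as did 0 of all 18193 genes (0.0%). At an unadjusted p under 0.05 the count was again 0 of 76, where 2.56% of all genes had one, and the smallest unadjusted p of a member was 0.178. In every member the control and knockout arrays overlapped, so 0 of 76 were separated, against 1.7% of all genes. The log2 difference, knockout minus control, lay between -0.22 and 0.09 and was under 0.2 in size in 75 members and under 0.1 in 50. The median half-width of the 95% interval was 0.27, and in 61 members the whole interval lay within 0.5 of 0 on either side.

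The small differences mostly pointed the same way. Of 76 members 65 lay below control (85.5%), where 53.3% of all genes did, with a median difference of -0.07 against -0.008. Large-subunit genes lay below control in 39 of 47 (median -0.08) and small-subunit genes in 26 of 29 (median -0.06). How many members lay below control, and by how much, depended on which arrays were compared. The count was 45 of 76 without control 1 (median -0.015; all genes 53.4%) and 45 without control 2 (-0.012; all genes 53.2%). It was 74 without control 4 (-0.16; all genes 51.5%). Without control 4 11 members had an unadjusted limma p under 0.05 (8.61% of all genes did) and the smallest adjusted p was 0.552. The members varied together, as described below, so the 11 are not separate observations. The median was -0.11 without control 3, -0.03 without knockout 10, -0.13 with array weights and -0.13 without controls 1 and 4 and knockout 9, the arrays with the large pyruvate carboxylase difference. That last limma fit called 155 of 18193 genes (0.852%) and 0 members, and 1 member had an unadjusted p under 0.05 (12.6% of all genes). In bulk tissue, fewer cells of a type and less RNA per cell cannot be told apart.

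**Figure D2:**
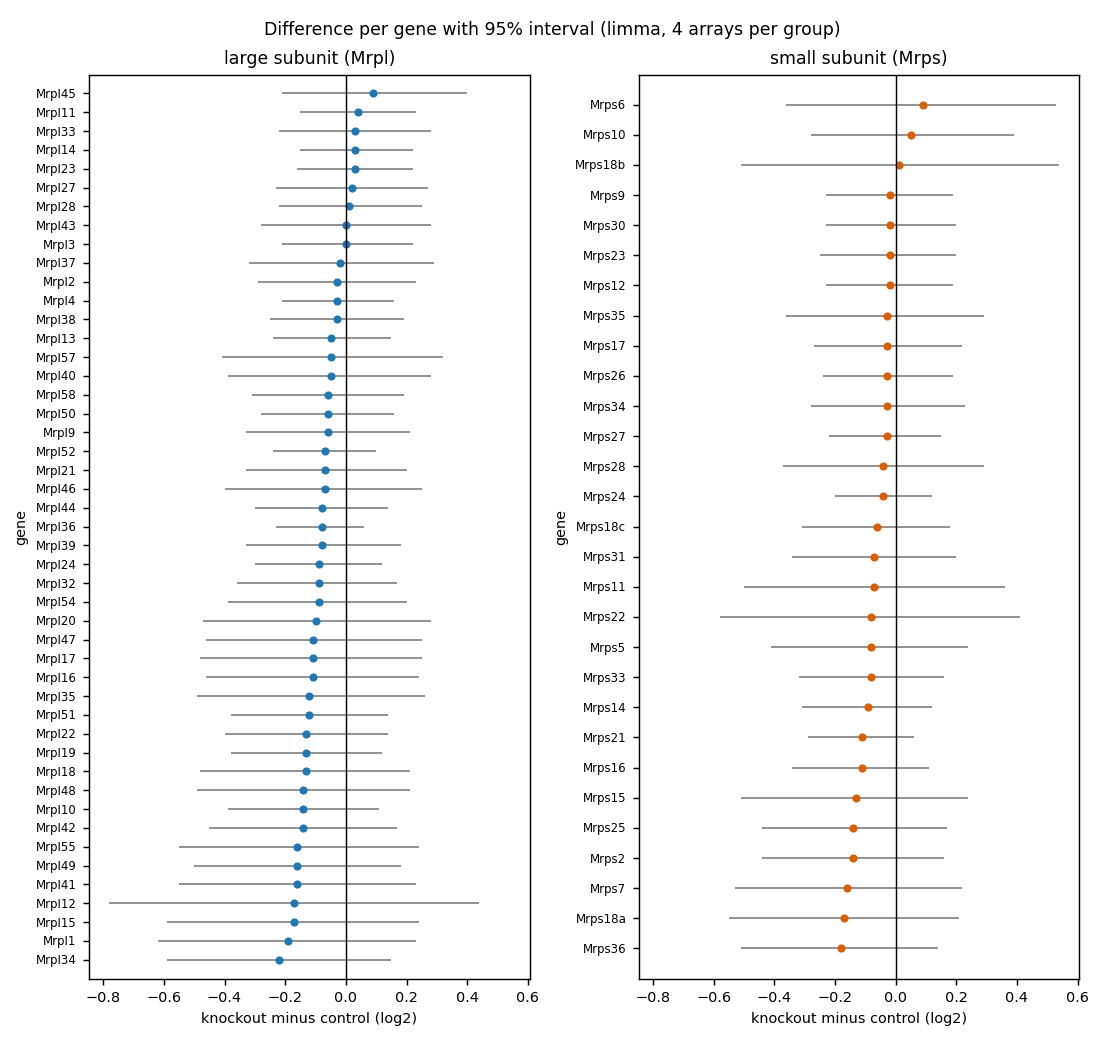
Difference between knockout and control (log2, horizontal axis) for each of the 47 large-subunit and 29 small-subunit genes, with the 95% interval from limma over 4 arrays per group. Every interval crosses 0, and the points lie between -0.22 and 0.09.

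The members varied together from array to array. After subtracting each gene's mean over the 8 arrays, all 76 members lay above their own mean on control 1 and all 76 on control 2. On control 4 just 1 of 76 did (Mrpl52), and on knockout 10 just 3 did (Mrpl14, Mrpl3 and Mrps6); these 4 exceptions were picked out after their values were seen. The counts were 19 on control 3, 59 on knockout 6, 41 on knockout 8 and 24 on knockout 9. The mean over members was 0.22 and 0.23 on controls 1 and 2, -0.07 on control 3 and -0.24 on control 4, and 0.04, 0.01, -0.04 and -0.16 on knockouts 6, 8, 9 and 10. All genes together averaged between -0.04 and 0.04 on every array, with 43.2% to 59.1% of them above their own mean.

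**Figure D3:**
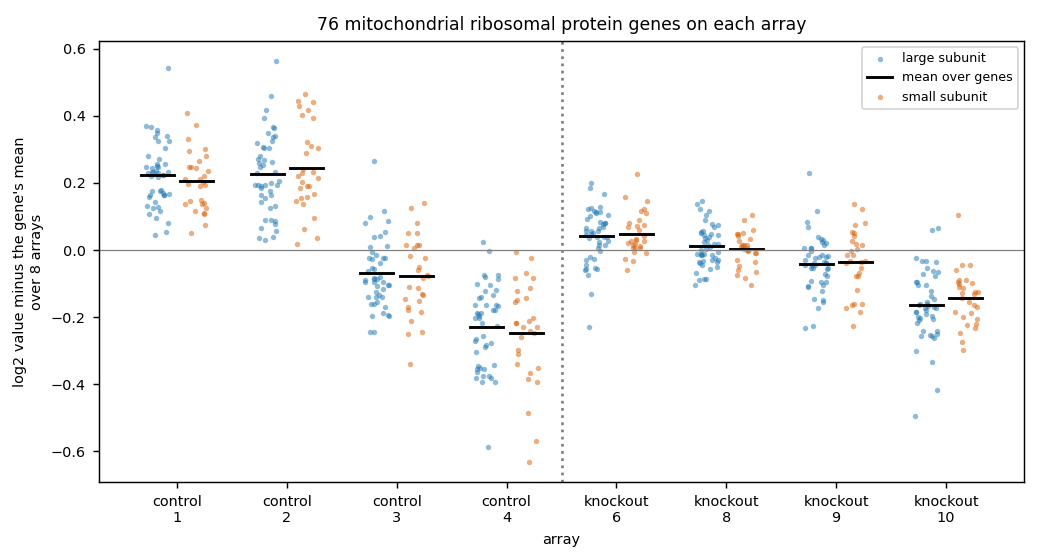
Log2 value minus the gene's mean over the 8 arrays (vertical axis) for 76 genes on each array, with large-subunit genes in blue, small-subunit genes in orange and black bars for their means. Controls 1 and 2 sit wholly above 0, control 4 and knockout 10 almost wholly below, and both subunits shift together.

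The control group therefore held both ends of the range, and the knockouts lay between. The highest value of a member was on control 2 in 50 cases, on control 1 in 24 and on knockout 8 in 2 (Mrpl14 and Mrpl23). The lowest was on control 4 in 47 cases, on knockout 10 in 15 and on control 3 in 12, with Mrpl47 lowest on knockout 6 and Mrpl14 on knockout 9. In 58 of 76 members (76.3%) all 4 knockout arrays lay inside the range of the 4 controls, against 34.1% of all genes. The SD was larger among controls than among knockouts in 74 of 76 members (97.4%; all genes 66.7%), with Mrpl14 and Mrps14 as the exceptions, and the median SD was 0.22 in control and 0.10 in knockout. Control 2 exceeded control 4 in 76 of 76 members, by a median of 0.44 on the log2 scale or 1.36-fold, while 45.6% of all genes were higher on control 2. These patterns were noticed in the data and carry no test.

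**Figure D4:**
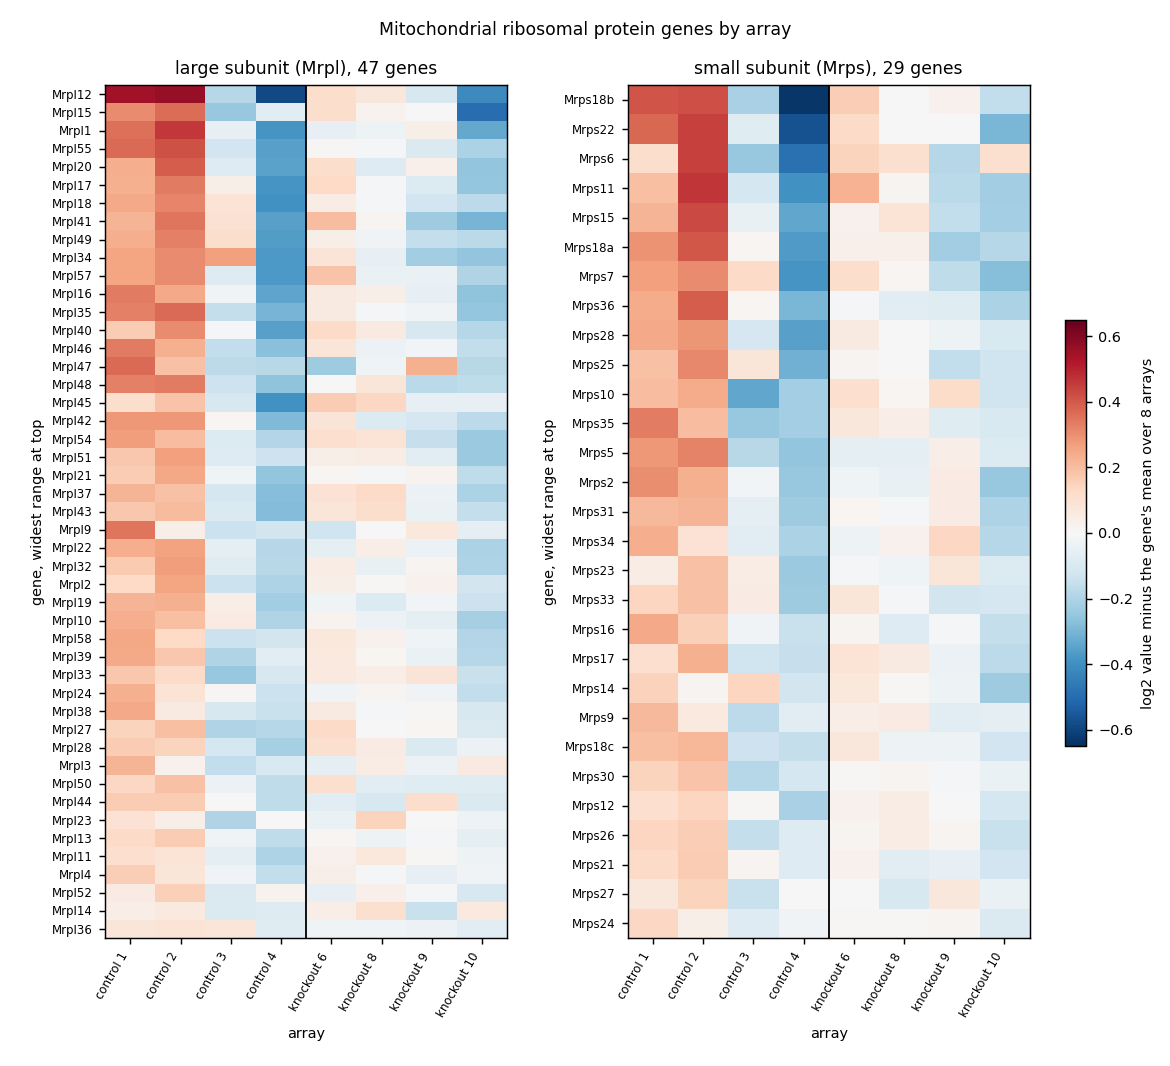
Log2 value minus the gene's mean over the 8 arrays (colour) for every large-subunit gene (left, 47) and small-subunit gene (right, 29), with arrays in columns and the genes of widest range at the top. Controls 1 and 2 are red and control 4 and knockout 10 blue down nearly the whole of both panels.

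Both subunits followed the same course. The mean over large-subunit genes was 0.224, 0.227, -0.069 and -0.229 on controls 1, 2, 3 and 4, and that over small-subunit genes 0.206, 0.245, -0.078 and -0.246. On knockouts 6, 8, 9 and 10 the large subunit gave 0.042, 0.011, -0.041 and -0.165 and the small subunit 0.048, 0.001, -0.035 and -0.142. Their difference, large minus small, stayed between -0.023 and 0.018 on every array. It averaged 0.006 ± 0.017 over the 4 control and -0.006 ± 0.013 over the 4 knockout arrays (SD), a shift of -0.013 that is about the SD among knockouts and under that among controls. By evolutionary origin, 34 of 43 members with a bacterial counterpart lay below control (79.1%, median -0.085), and 26 of 28 particular to mitochondria did (92.9%, median -0.069). All 4 knockouts lay inside the control range in 67.4% of the former and 89.3% of the latter, and the difference was not tested. The median SD over the 8 arrays was 0.16 for the former and 0.18 for the latter.

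By SD over the 8 arrays Mrpl12, Mrps18b, Mrps22 and Mrpl1 varied most; by range Mrps6, Mrps11 and Mrpl15 came before Mrpl1. Mrpl12 forms the flexible stalk of the large subunit that recruits translation factors. It read 10.85, 10.87, 10.12 and 9.72 on controls 1 to 4 and 10.42, 10.38, 10.20 and 9.89 on knockouts 6, 8, 9 and 10. Controls 1 and 2 lay above and control 4 below every knockout array, a range of 1.16. The group means, 10.39 ± 0.57 and 10.22 ± 0.24 (SD, n = 4 each), gave knockout minus control as -0.17 (95% interval -0.78 to 0.44). Its promoter window above holds the NRF1 motif.

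Mrps18b is 1 of 3 paralogues of a bacterial small-subunit protein. In the grouping by origin above, Mrps18a and Mrps18b were counted as particular to mitochondria and Mrps18c as having a bacterial counterpart. Mrps18b is taken first. It read 10.15, 10.16, 9.53 and 9.11 in controls and 9.90, 9.74, 9.77 and 9.58 in knockouts, so the knockouts again lay between the controls, with means of 9.74 ± 0.51 and 9.75 ± 0.13. Mrps18a, the paralogue built into the large subunit, read 10.32, 10.43, 10.04 and 9.66 against 10.06, 10.06, 9.80 and 9.84. Its difference was -0.17 (-0.55 to 0.21). Mrps18c, which like Mrps18b sits in the small subunit, spanned just 0.37 over the 8 arrays, with 10.81 ± 0.20 and 10.75 ± 0.08.

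Mrps22, a mitochondria-specific protein whose gene is mutated in a human mitochondrial disease, read 10.09, 10.16, 9.64 and 9.15 in controls and 9.84, 9.72, 9.72 and 9.42 in knockouts. Its lowest value was on control 4 and its next lowest on knockout 10. Mrpl1, of the mobile arm next to the tRNA exit site, read 8.07, 8.17, 7.66 and 7.33 against 7.66, 7.68, 7.75 and 7.38. The differences were -0.08 (-0.58 to 0.41) for Mrps22 and -0.19 (-0.62 to 0.23) for Mrpl1. Mrps6, with a range of 0.94 and picked out after its values were seen, broke the order: it read 11.19, 11.52, 10.83 and 10.59 in controls but 11.18 on knockout 10, level with 11.22 and 11.18 on knockouts 6 and 8.

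At the other end Mrps24, Mrpl36, Mrpl52 and Mrpl14 hardly varied. Mrps24, which binds messenger RNA near the entry to the small subunit, read 10.50, 10.40, 10.28 and 10.34 in controls and 10.37, 10.37, 10.38 and 10.27 in knockouts. Mrpl36 spanned 0.18 over the 8 arrays, with 8.91 ± 0.08 in control and 8.83 ± 0.02 in knockout. Mrpl14, at the face that meets the small subunit, read 9.66, 9.68, 9.52 and 9.53 against 9.66, 9.72, 9.47 and 9.68, with no order of controls over knockouts.

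With 1 probe set per gene, the smallest unadjusted p-values between the groups were not small. Some probe sets that were not chosen had lower ones, such as 1 of Mrps5 at -0.16 (-0.34 to 0.02; limma unadjusted p = 0.074). Mrps21 read 10.49, 10.53, 10.38 and 10.28 in controls and 10.39, 10.29, 10.31 and 10.24 in knockouts. Its means of 10.42 ± 0.11 and 10.31 ± 0.06 differed by -0.11 (-0.29 to 0.06; limma unadjusted p = 0.178, adjusted p = 0.999). Among large-subunit genes Mrpl34, a small RNA-binding protein, came first. Mrpl34 read 9.96, 10.01, 9.97 and 9.33 in controls and 9.79, 9.65, 9.48 and 9.45 in knockouts. Of the controls 3 lay above every knockout and control 4 below, a difference of -0.22 (-0.59 to 0.15). Next came Mrpl36 at -0.08 (-0.23 to 0.06), Mrpl10 at -0.14 (-0.39 to 0.11) and Mrpl19 at -0.13 (-0.38 to 0.12). Among small-subunit genes Mrps36 stood at -0.18 (-0.51 to 0.14), Mrps16 at -0.11 (-0.34 to 0.11) and Mrps2 at -0.14 (-0.44 to 0.16). Mrps36 is now also known as Kgd4, a component of the 2-oxoglutarate dehydrogenase complex of the citric acid cycle, so its place in the ribosome is in doubt.

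Genes grouped by their part in translation gave the same picture. In the stalk region Mrpl10, which anchors Mrpl12, averaged 10.40 ± 0.20 on control and 10.26 ± 0.10 on knockout arrays, and Mrpl11, at its base, 10.35 ± 0.14 and 10.39 ± 0.04. Around the site where peptide bonds form, Mrpl2 differed by -0.03 (-0.29 to 0.23), Mrpl3 by 0.00 (-0.21 to 0.22), Mrpl16 by -0.11 (-0.46 to 0.24) and Mrpl27 by 0.02 (-0.23 to 0.27). All 4 intervals hold 0. Along the exit tunnel Mrpl4 differed by -0.03, Mrpl23 by 0.03 and Mrpl45, which holds the ribosome to the inner membrane, by 0.09 (-0.21 to 0.40). Mrpl45 read 9.49, 9.56, 9.27 and 8.98 in controls and 9.54, 9.51, 9.32 and 9.32 in knockouts, the highest difference among large-subunit genes. Each of its knockout arrays lay above control 4.

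In the small subunit the decoding protein Mrps12 averaged 9.94 ± 0.16 on control and 9.92 ± 0.07 on knockout arrays, -0.02 apart (-0.23 to 0.19). Mrps7, of the head, differed by -0.16 (-0.53 to 0.22) and Mrps5, near the messenger entry, by -0.08 (-0.41 to 0.24). Mrps15, an RNA-binding protein, stood at -0.13 (-0.51 to 0.24), and Mrps34, whose loss destabilises the small subunit, at -0.03 (-0.28 to 0.23). Mrps27, an RNA-binding protein of the pentatricopeptide repeat family, differed by -0.03 (-0.22 to 0.15). Mrpl44, related in fold to ribonuclease III, stood at -0.08 (-0.30 to 0.14), Mrpl41 at -0.16 (-0.55 to 0.23) and Mrps30, which despite its symbol sits in the large subunit, at -0.02 (-0.23 to 0.20).

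The pair with a shared start region took the sides that 72 of 76 members took. Mrpl46 read 9.27, 9.16, 8.77 and 8.66 in controls and 9.01, 8.89, 8.91 and 8.77 in knockouts, and Mrps11 read 8.95, 9.22, 8.64 and 8.36 against 8.98, 8.77, 8.58 and 8.53. Both were high on controls 1 and 2 and lowest on control 4. Of 22 measured partner genes, which include Mrpl46 and Mrps11, 7 (31.8%) lay above their own mean on controls 1 and 2 and below it on control 4 and knockout 10, against 18.4% of all genes. Apart from these 2 members, 5 of 20 partners did: Ndufb5, Tcp1, Psma2, Hira and Tmem63b. These sides were picked from the members' values, and the counts were not tested. Ndufb5, beside Mrpl47, stood at 0.24 and 0.25 on controls 1 and 2, -0.04 on control 4 and -0.15 on knockout 10. Sars2, the neighbour of Mrps12, read highest on control 4 (7.58) and lowest on knockout 10 (7.25). Twnk, beside Mrpl43, lay 0.11 above its mean on control 1 and 0.28 above it on knockout 8. Members with the ETS motif had a median range of 0.44 over the arrays and members without it 0.56.

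Other probe sets for the same genes allowed the pattern to be looked at again on the same RNA. Of 76 members 42 had more than 1 probe set, leaving 80 that had not been used. Where their mean exceeded the median of all genes, 34 probe sets of 25 genes, 32 lay above their own mean on control 1, 32 on control 2, 2 on control 4 and 3 on knockout 10. Over all 80, dim ones included, the counts were 48, 62, 28 and 26, so the sides were less regular once dim probe sets were counted. Mrpl15, with 8 probe sets, differed between groups by -0.04 to -0.29 depending on the probe set, each below 0. In 17 of the 42 genes some probe sets lay above control and others below. In 126 of 156 member probe sets knockout lay below control, against 52.3% of all probe sets.

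The course over arrays was shared by other genes of mitochondrial translation and was not seen in the cytosolic ribosome. The arrays and sides compared here were picked after the members' values were seen, so the members' own share follows partly from that choice. None of the counts below was tested. Of the members 72 of 76 (94.7%) lay above their own mean on controls 1 and 2 and below it on control 4 and knockout 10, against 18.4% of all genes. Of 16 mitochondrial translation factors 15 did, of 82 genes of the respiratory chain and ATP synthase 61 (74.4%), of 15 mitochondrial chaperones and proteases 12, and of 21 mitochondrial aminoacyl-tRNA synthetases 13. All 4 mitoribosomal proteins with other symbols that were measured (Dap3, Ptcd3, Chchd1 and Gadd45gip1) did so. The count was 13 of 24 for ribosome assembly and RNA factors, 10 of 17 for transcription and replication of the mitochondrial genome and 3 of 12 for regulators of mitochondrial biogenesis. Of 48 cytosolic ribosomal protein genes 7 did (14.6%), with list means between -0.04 and 0.06. The order at the low end was shared less widely. Control 4 and knockout 10 were the lowest arrays in 55.3% of members, 13.4% of respiratory chain genes and 9.27% of all genes.

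**Figure D5:**
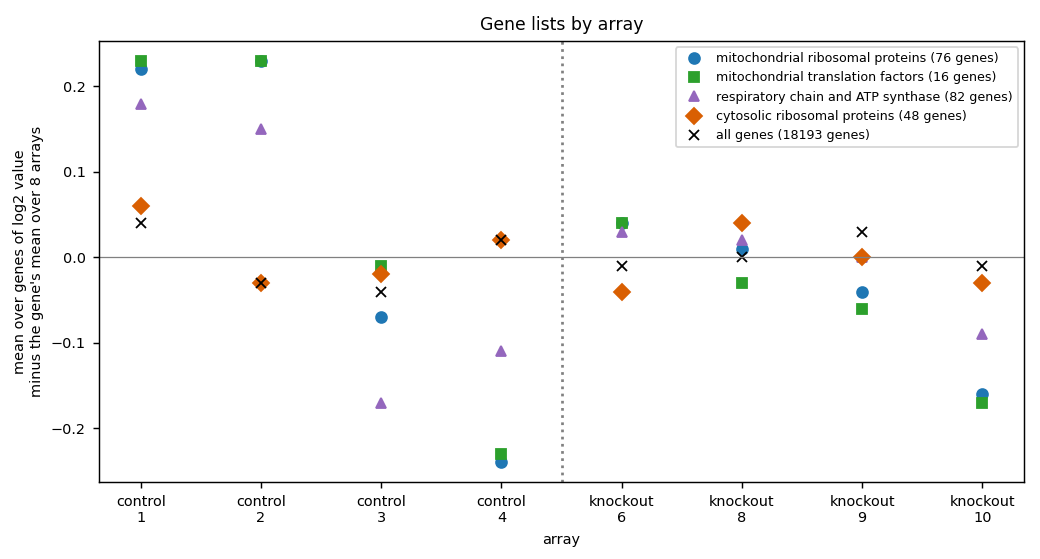
Mean over the genes of a list of the log2 value minus the gene's mean over the 8 arrays (vertical axis), by array, for 5 lists. Mitochondrial ribosomal proteins and translation factors lie near 0.23 on controls 1 and 2 and near -0.23 on control 4. The respiratory chain takes the same sides over a narrower range but is lowest on control 3 (-0.17, control 4 -0.11). Cytosolic ribosomal proteins keep within 0.06 of 0.

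Between knockout and control 0 genes of these lists passed over all genes. Dap3, a GTP-binding protein of the small subunit, read 10.55, 10.37, 10.20 and 9.97 in controls and 10.23, 10.12, 10.17 and 9.96 in knockouts, and Chchd1 differed by -0.08. Gadd45gip1, also called Crif1, read 8.07 in both groups, and Ptcd3 differed by -0.09. Over all genes 53.3% lay below control. Of 16 translation factors 15 did (median -0.104), with differences down to -0.24. Of these 16, 15 lay above their own mean on control 1 and 16 on control 2. By unadjusted p the first were Mtfmt, which formylates the initiator methionine (-0.14, -0.32 to 0.04), and Mtrf1l, a release factor (-0.23, -0.52 to 0.07). Of 21 aminoacyl-tRNA synthetases 18 lay below, with Mars2 at -0.19 (-0.38 to -0.01) and Sars2 at -0.14 (-0.30 to 0.02). Of 24 assembly and RNA factors 18 did, with Rpusd4, a pseudouridine synthase, at -0.16 and Tfb1m, which methylates the small ribosomal RNA, at -0.18. Mars2 and Rpusd4 were the 2 genes of the mitochondrial lists with an unadjusted limma p under 0.05 (0.0428 and 0.0486), and both had an adjusted p of 0.999. Mars2 is dim, with a control mean of 4.62 where the 25th percentile of all genes was 5.48.

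The other gene lists had median differences between -0.067 and -0.011, where all genes had -0.008 and 53.3% of them lay below control. Of 17 genes of mitochondrial genome transcription and replication 13 lay below control, with Polrmt, the mitochondrial RNA polymerase, at -0.17 (-0.47 to 0.12) and Mterf1a at -0.10. All 15 chaperones and proteases lay below, Hspd1, the chaperonin Hsp60, by -0.16 (-0.41 to 0.08) and Afg3l1 by -0.15. Of these 15, 14 lay above their own mean on control 1 and 15 on control 2. Of 82 respiratory chain genes 58 lay below (median -0.034), with Ndufb5 at -0.17 (-0.40 to 0.05) and Atp5mpl at -0.14. Of 12 biogenesis regulators 7 lay below. Ppargc1a, the coactivator PGC-1alpha, stood on the other side at 0.60 (-0.22 to 1.42). It read 5.80 on control 3 and between 7.08 and 7.83 on the other 7 arrays, and Myc stood at -0.17. Of 48 cytosolic ribosomal protein genes 27 lay below (median -0.011), Rps6 at -0.18 and Rpl22l1 at -0.12.

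Some markers of other tissues and the position of the arrays in the sample list also differed between the arrays that were high and low. Of 6 liver markers 5 were measured, with mean log2 values of 6.27 to 11.46 in control and 6.05 to 9.35 in knockout. Relative to their means they stood at 3.39 and 0.61 on controls 1 and 2, -1.80 on control 4 and -0.98 on knockout 10, with 5 of 5 on the sides described for the members, but at 1.28 on knockout 6 and -2.03 on knockout 9. The 6 brown and beige adipocyte markers stood at 0.15, 0.23, -0.01 and -0.31 on the controls and 0.04, 0.08, -0.24 and 0.06 on the knockouts. The 7 adipocyte markers were lowest on control 4 (-0.30) and lay between -0.05 and 0.15 on the others. Of the brown and beige markers 2 of 6 took the members' sides, and of the adipocyte markers 2 of 7. The 7 macrophage markers averaged 9.80 to 10.48 in control and 9.39 to 10.01 in knockout, 7 of 7 below control (median -0.346), and 0 took the members' sides. T cell markers, 3 of 4 listed, ran opposite to the members. Their means were -0.24, -0.33, 0.05 and 0.43 on controls 1 to 4 and -0.22, -0.09, 0.04 and 0.35 on knockouts 6, 8, 9 and 10, with 0 of 3 above their own mean on controls 1 and 2 and 3 of 3 on control 4 and knockout 10. The 4 endothelial markers stood at -0.35, -0.20, 0.35 and 0.26 on the controls and 0.07, -0.29, 0.15 and 0.00 on the knockouts. Red blood cell markers, 2 of 4 listed, stood at -0.72, -0.77, 0.53 and 1.08 on the controls and -0.51, -0.15, 0.62 and -0.08 on the knockouts. The 2 genes ran opposite ways on controls 1, 2 and 4 and knockout 10, and 1 of 2 took the members' sides. The 5 spermatid markers stood at 2.13 on control 3 and 2.7 on knockout 9, and between -1.21 and 0.20 on the others. Mesothelial markers ran from -1.28 on knockout 6 to 0.84 on control 3, and epididymal markers from -0.64 on knockout 6 to 1.68 on knockout 8. On knockout 8 just 1 of the 3 epididymal markers measured lay above its own mean, and their median was -0.17. Markers of ovary, oviduct and uterus ran from -1.24 on control 3 to 0.49 on knockout 8. Skeletal muscle markers lay between -0.11 on control 2 and 0.18 on knockout 6. In each of these lists, from spermatid on, 0 genes took the members' sides. The table gives no detection calls, so whether a marker was absent cannot be judged. The part of these genes in the pattern was not tested.

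The sample list alternates control and knockout, and its first 4 arrays (controls 1 and 2, knockouts 6 and 8) had higher member values than its last 4. Among the first 4 arrays 75 of 76 members lay below control, all but Mrpl14, with a median of -0.18 (all genes 55.0% below). An unadjusted limma p under 0.05 was reached by 21 members (7.02% of all genes), 0 passed after adjustment, and the smallest adjusted p was 0.703. This fit compared controls 1 and 2 with knockouts 6 and 8. The members varied together, so the 21 are not separate observations. Among the last 4 arrays 20 of 76 lay below control (all genes 46.6%), with a median of 0.06. Whether the 2 sets of arrays differ in the effect of the knockout was not tested. On the arrays with a large pyruvate carboxylase difference the member mean was 0.22 on control 1, -0.24 on control 4 and -0.04 on knockout 9. With that difference as a covariate 67 of 76 members lay below control (median -0.082; all genes 50.8%). The part of RNA integrity in the course over arrays was not tested.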

How the data were processed

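RNA of 4 control and 4 aP2-Pex5 knockout samples of gonadal fat was measured on 1 array each. The authors deposited log2 values made with RMA, per the submitters' processing notes; RMA corrects background, normalises between arrays and summarises probe sets. No version is named.

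The table held 45101 probe sets, of which 64 Affymetrix controls were left out. In the platform annotation of 2016, 34945 had 1 gene symbol, 932 several and 9160 none. A gene took its probe set with the highest mean. Mrpl30 and Mrpl53 appeared only beside another gene's symbol and were not analysed here.

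Groups were compared with limma 3.58.1 in R 4.3.3 (lmFit, eBayes, no covariates) over 18193 genes with Benjamini-Hochberg adjustment and a threshold of 0.05, after a check on simulated data. Precision is limited by having 4 arrays in a group, and the table gives no detection calls. Intervals are at 95% and not adjusted. Centred values are log2 values minus the gene's mean over 8 arrays. Alternatives covered the variance model, array weights, a filter at the 25th percentile, renormalisation, the choice of probe set, list position as a block, the pyruvate carboxylase covariate and leaving out arrays; subunits by position in the ribosome and leaving out 3 arrays were added after seeing the data. The named genes were the 4 members of smallest unadjusted p per subunit, the 4 of largest and smallest SD, a list by role, and the 2 of smallest p in each other list; others are said to have been picked by value. Members and lists were chosen with earlier results of these data known. Promoter sequences are from RefSeq, GRCm38.p6. Figures used matplotlib 3.10.9.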

Additional observations from a re-analysis of the deposited data

Results flagged for a closer look

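A sample far from the 3 others of its group was seen in 8 of 152 groups of 4 arrays (76 genes, 2 groups), or 5.26%. Chance gives about 1 in 20 where groups are independent. These genes varied together over the same arrays, so that rate does not apply directly. Among the genes named above the outlying samples were Mrpl34 on control 4 (9.33, the other controls 9.96 to 10.01), Mrpl36 on control 4 (8.79, the others 8.95 to 8.96), Mrpl44 on knockout 9 (9.52, the others 9.30 to 9.33) and Mrps24 on knockout 10 (10.27, the others 10.37 to 10.38).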

How the results depend on the processing

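The count of members past the adjusted threshold was 0 in all alternatives run, a threshold of 0.1 included. Over all genes tested it was 0 in each refit but that without controls 1 and 4 and knockout 9, where 155 genes passed, and 1 member (Mrpl34) against 12.6% of genes had an unadjusted p under 0.05. At an unadjusted p under 0.05 the count of members was 0 over the 8 arrays. The count below control was 126 of 156 with every probe set alone and 20 of 76 within the last 4 arrays listed. The large minus small difference, -0.013 over the 8 arrays, was 0.007 with plain _at probe sets, where 62 members remained. Leaving out 1 array at a time gave 45 to 74 members below control and medians of -0.162 to -0.012 for all members, -0.17 to -0.019 for the large subunit and -0.159 to 0.001 for the small. The large minus small difference then ran from -0.021 to -0.007. Of 674 values of 34 named members under alternatives, 664 moved by less than the SD between arrays and 80 changed sign, none of them called. No paired analysis was possible because the groups share no replicate number.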
